A study of Mus musculus with 9 samples.

Results

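The genes described here are 37 genes of homologous recombination and DNA damage repair, measured by RNA sequencing in group 2 innate lymphoid cells (ILC2s) of the mouse pancreas. They were taken by symbol from a list of repair genes, and all 37 were among the 20732 genes of the count table. ILC2s are tissue-resident lymphocytes without antigen receptors that secrete type 2 cytokines, and IL-33, an alarmin released by damaged tissue, stimulates them through its receptor ST2. C57BL6/J mice received PBS or 200 ng IL-33 on days 0 and 1, and pancreata were harvested on day 5. ILC2s were sorted as live CD45+ KLRG1+ cells that lacked CD3, B220 and lineage markers, so both groups share this gate. The sample labels give 4 control libraries, titled naive and called PBS here, and 5 IL-33 libraries, whereas the text on the design counts 5 mice given PBS and 4 given IL-33. The labels do not state that each library came from its own mouse, so p-values reflect only how far these libraries spread, which may be technical.

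Homologous recombination mends a DNA double-strand break by copying the sister chromatid, and it works mainly in S and G2 phase, when a sister is present. The MRN complex finds and trims the break, the BRCA proteins prepare the single strand for exchange, and strand exchange factors such as the RAD54 proteins and XRCC3 help it to pair with the sister. The Fanconi anaemia proteins clear crosslinks between strands, the kinases ATM and ATR signal damage and stalled forks, and Ku and 53BP1 favour the joining of ends without a template. Lymphocytes draw on these pathways whenever they divide.

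Total counts lay between 14216976 and 21020023 per library, with 16015 to 17573 genes detected. PBS replicate 4 stood apart, with acinar cell genes at 38.49% of its counts against 0.1195% to 6.938% in the other PBS libraries and 0.3364% to 11% with IL-33, and its TMM scaling factor was 0.5325 against 0.9901 to 1.169 elsewhere. Klrg1 and Ptprc, the genes of the gate markers KLRG1 and CD45, and Gata3 and Il1rl1, ILC2 genes outside the gate, were present in every library. Mean Gata3 was 4518 ± 579 CPM in PBS (SD, n = 4) and 4030 ± 1586 CPM with IL-33 (SD, n = 5). Klrg1 RNA, the gene of the sort marker, was higher with IL-33 (log2 change 1.01, SE 0.13, adjusted p = 7.88e-04). IL-33 replicates 1 to 3 held 3665 to 16688 counts of the beta-globin gene Hbb-bs, while the other libraries held 0 to 32. Counts are given as TMM-scaled CPM, read counts scaled to a common library total, changes are log2 IL-33 over PBS from edgeR, and a gene was called at an adjusted p below 0.05.

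All 37 repair genes passed the filter on low counts. With IL-33, 11 of them (29.7%) were called higher, against a background of 13.7% of the 14405 genes tested that were called higher. They are Brca1, Bard1, Rad51ap1, Rad54l, Rad54b, Fancd2, Parp1, Clspn, Timeless, Tipin and Rad21. Nbn and Atr fell, which is 5.41% of the repair genes against a background of 11.6% of genes called lower. The other 24 were not called, 16 of them with a change above 0. The median log2 change was 0.95 over the 37 genes and -0.05 over all genes tested. Over all genes 1967 were called higher and 1666 lower. Scaling by library size alone gave 1332 higher and 644 lower, put the overall median at 0.08 and ended the calls of Atr and Rad21. In bulk RNA, more cells that express a gene and more RNA per cell cannot be told apart.

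The filter bears on these counts, because many of the genes were near 0 without IL-33. It asked for about 0.538 CPM in at least 4 libraries. All 37 genes reached this in at least 4 IL-33 libraries, but 20 reached it in all 4 PBS libraries. Of the 17 that did not, 6 were called higher; these passed through their IL-33 libraries, so their count is not independent of the filter. Between 2 and 8 of the 37 genes had no count in a given PBS library, and between 0 and 2 in a given IL-33 library. Over all genes tested, 3.9% to 5.19% had no count in a given PBS library and 0.937% to 4.38% in a given IL-33 library. The groups did not overlap for 13 genes on the higher side, against a background of 15.3% of genes tested, and for 2 on the lower side, against 10.8% (26.1% in either direction).

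**Figure D1:**
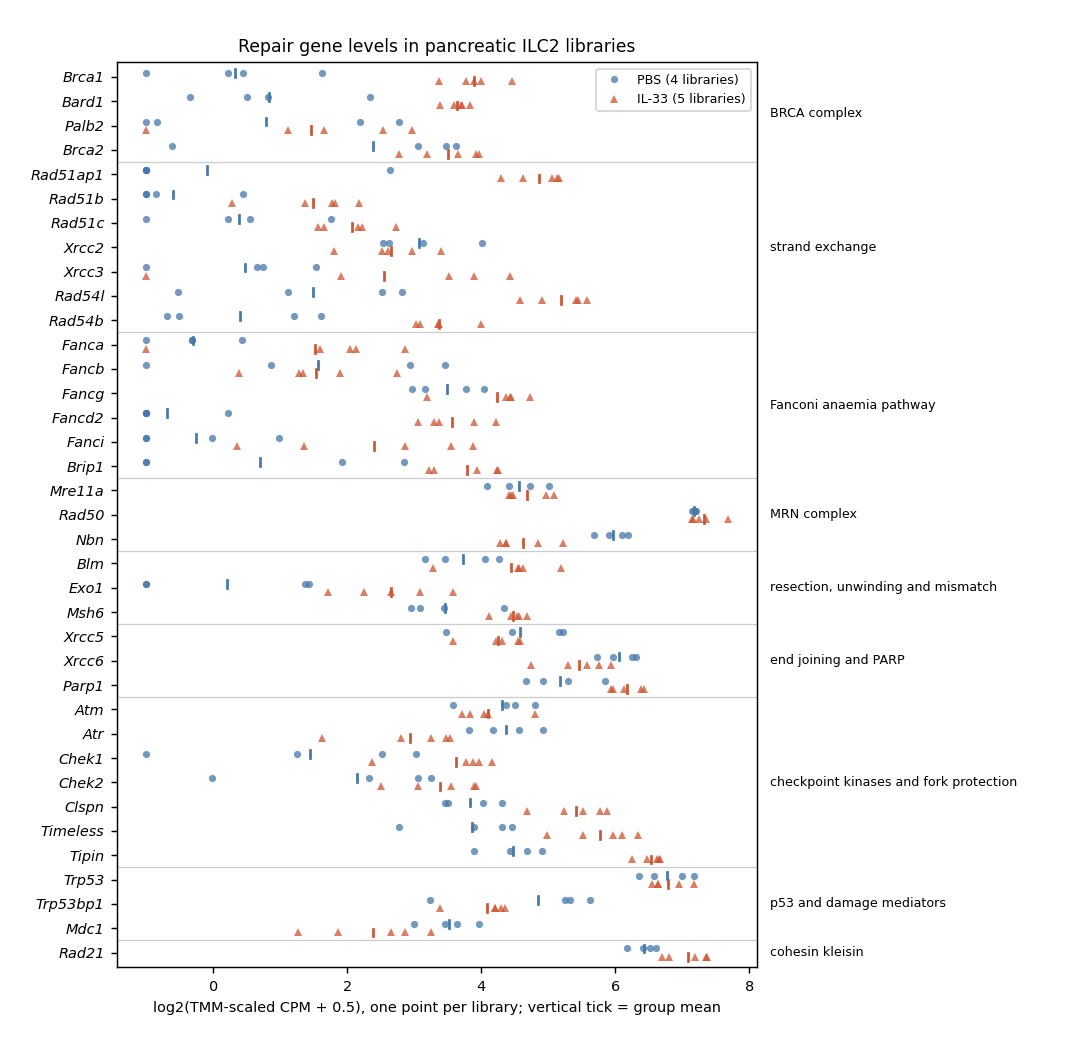
Level of each of the 37 repair genes in every library as log2(TMM-scaled CPM + 0.5), with blue circles for the 4 PBS libraries, red triangles for the 5 IL-33 libraries and a tick at each group mean. Brca1, Rad54l and Tipin sit higher in all 5 IL-33 libraries than in any PBS library, Nbn and Atr sit lower, and Trp53 overlaps.

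Promoter sequence was examined because E2F factors, which drive S-phase transcription, are known to bind many repair genes. RefSeq windows on GRCm38.p6, from 250 bases before to 50 after the annotated start, matched 29 of the 37 genes. The octamer searched as an E2F motif was TTTCCCGC, TTTCGCGC, TTTGCCGC or TTTGGCGC on either strand. It was found in 9 of the 29 genes (31.0%), in any of their windows, against 4.70% of the 9280 tested genes with a window. Counted by window rather than by gene, 2.27% of all 32851 windows held it. A second form, TTCCCGCC, shares 7 letters with the first octamer and can overlap it. It was in 6 of the 29 genes (20.7%), against 4.74% of tested genes. The CCAAT box was in 65.5% against 43.1%, and the cell cycle element CHR, searched as TTTGAA, in 6.90% against 15.0%. These matches are a description of letters and not of bound sites.

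Stretches upstream of both the RefSeq and the GENCODE start are shown for 5 genes that differ in their response: Bard1 and Brca1, partners that both rose, Brca2, which was not called, Clspn, whose rise held in every alternative run, and Atr, which fell. Capitals mark an E2F octamer (TTTCCCGC, or GCGGGAAA as read on the other strand) or a CCAAT box (ATTGG on the other strand), and each runs 5′ to 3′ on the strand of its gene. Their places on GRCm38.p6 are chr1:71103147-71103222 on the minus strand for Bard1, chr5:150522371-150522620 on the plus strand for Brca2, chr11:101551956-101552205 on the minus strand for Brca1, chr4:126556730-126556934 on the plus strand for Clspn and chr9:95857347-95857596 on the plus strand for Atr.
Bard1: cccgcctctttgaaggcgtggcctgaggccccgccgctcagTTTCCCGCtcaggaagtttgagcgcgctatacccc
Brca2: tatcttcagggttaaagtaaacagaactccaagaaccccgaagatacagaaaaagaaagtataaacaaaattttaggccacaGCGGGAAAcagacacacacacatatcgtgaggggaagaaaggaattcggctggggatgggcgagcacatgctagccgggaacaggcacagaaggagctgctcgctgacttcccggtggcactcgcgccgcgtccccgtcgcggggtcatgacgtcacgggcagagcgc
Brca1: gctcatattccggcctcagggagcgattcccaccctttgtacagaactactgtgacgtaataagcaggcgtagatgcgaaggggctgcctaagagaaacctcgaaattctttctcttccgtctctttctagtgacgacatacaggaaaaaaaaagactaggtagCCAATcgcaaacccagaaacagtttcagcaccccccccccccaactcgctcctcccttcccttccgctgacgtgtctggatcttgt
Clspn: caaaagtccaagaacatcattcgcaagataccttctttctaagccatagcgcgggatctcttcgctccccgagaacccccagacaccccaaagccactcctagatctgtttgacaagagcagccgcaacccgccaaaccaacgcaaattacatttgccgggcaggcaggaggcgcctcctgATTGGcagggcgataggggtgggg
Atr: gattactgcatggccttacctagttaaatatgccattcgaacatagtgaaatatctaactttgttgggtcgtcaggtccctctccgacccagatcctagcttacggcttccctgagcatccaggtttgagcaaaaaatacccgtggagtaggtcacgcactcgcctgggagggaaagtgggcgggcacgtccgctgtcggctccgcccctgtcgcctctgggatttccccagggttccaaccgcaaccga
Counted from the RefSeq start, the octamer began 209 bases upstream in Bard1 and 168 upstream in Brca2. In Clspn it began 21 bases after that start, outside the stretch shown. The stretches of Bard1 and Clspn end at the GENCODE start, which lies upstream of the RefSeq start. Brca1 had a CCAAT box but no octamer in its window, and Atr had neither. Of the 9 genes with the octamer, 2 were called higher, with a median log2 change of 0.94. Of the 20 without it, 5 were called higher and 1 lower, with a median of 1.38. Over all genes tested 13.7% were called higher and 11.6% lower. The genes without the octamer include Rad51ap1, which was called higher, Chek1 and Fancb, all with the second form. Genes with no window, left out of this split, include Rad54b, Fancd2, Tipin and Rad21, called higher, and Nbn, called lower. The split is thus no comparison of all responding genes with and without an E2F motif.

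**Figure D2:**
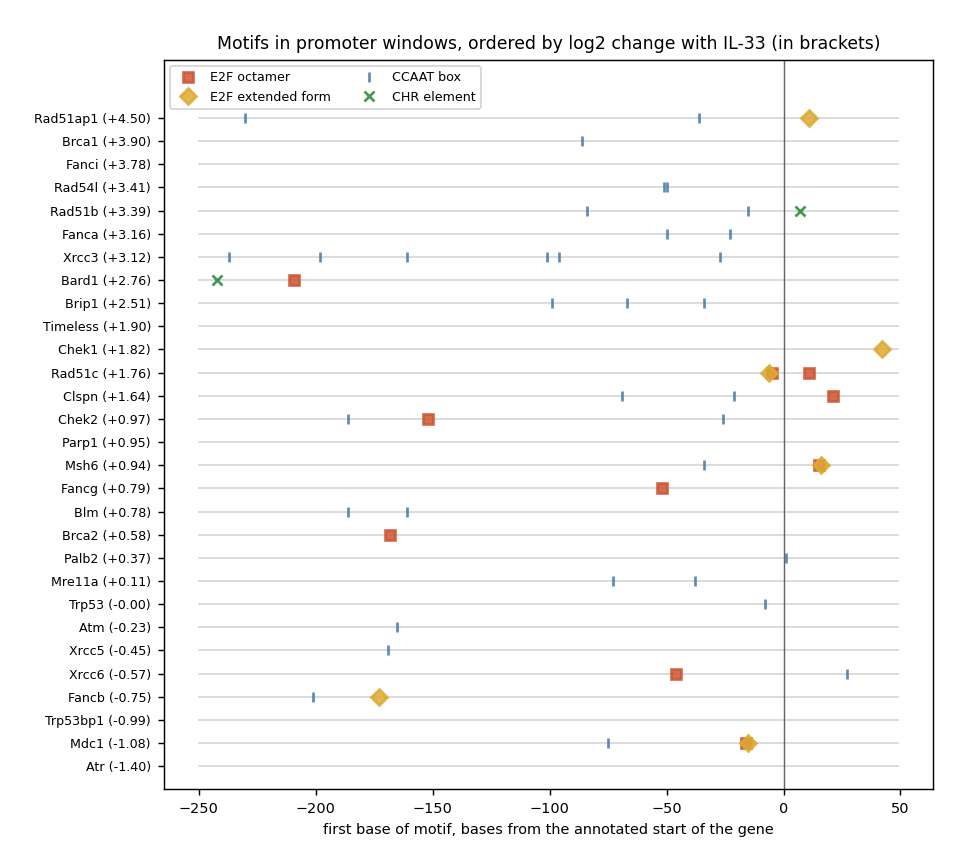
Position of 4 motifs in the promoter windows of 29 repair genes, in bases from the annotated RefSeq start. Genes are ordered by their log2 change with IL-33 (in brackets). Orange squares mark the E2F octamer, yellow diamonds its second form, blue ticks the CCAAT box and green crosses CHR; squares lie both in genes that rose, such as Bard1, and in genes that were not called, such as Brca2 and Xrcc6.

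Of the BRCA proteins, the partners BRCA1 and BARD1 form a ubiquitin ligase that acts early at breaks, and both of their genes rose. Brca1 (chr11:101488764-101551955) was at 0.863, 0, 0.659 and 2.58 CPM in the PBS libraries and at 13.1, 14.4, 9.86, 21.4 and 15.5 CPM with IL-33. The groups did not overlap, and the log2 change was 3.90 (SE 0.87, adjusted p = 0.01005). Bard1 (chr1:71027498-71103146) was at 1.27, 4.58, 0.912 and 0.286 CPM in PBS and 11.5, 12.6, 9.95, 12.5 and 13.7 CPM with IL-33, a log2 change of 2.76 (SE 0.66, adjusted p = 0.0138). Its IL-33 libraries lay close together and PBS replicate 2 was the highest control. When each library was left out, the change of Bard1 ranged from 2.40 (without PBS replicate 4) to 3.82 (without PBS replicate 2). That of Brca1 ranged from 3.48 (without PBS replicate 2) to 4.82 (without PBS replicate 4, its highest control).

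BRCA2, which acts on single-stranded DNA before strand exchange, and PALB2, which links it to BRCA1, were not called. Brca2 was at 10.6, 11.8, 0.152 and 7.82 CPM in PBS and 12, 15.1, 8.6, 6.34 and 14.6 CPM with IL-33. A single PBS library, replicate 3, was near 0 with 3 counts, while the other 3 held 82 to 208, and the groups overlapped (log2 change 0.58, SE 0.79, adjusted p = 0.628). Palb2 held 124, 1, 80 and 0 counts in the PBS libraries and ranged from 0 to 7.30 CPM with IL-33. Its change was 0.37 (SE 1.51, adjusted p = 0.883). Leaving out each library gave -0.12 (without IL-33 replicate 2) to 1.28 (without PBS replicate 1). No test compared these changes with those of Brca1 and Bard1.

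The strand exchange genes held large changes. RAD54L and RAD54B are DNA translocases that promote invasion of the sister, and RAD51AP1 stimulates the pairing of strands. Rad54l was at 1.68, 5.24, 6.54 and 0.191 CPM in PBS and 23.3, 43.2, 29.3, 42 and 47.3 CPM with IL-33, and its change was 3.41 (SE 0.71, adjusted p = 0.00711). Rad54b was at 2.54, 0.121, 0.203 and 1.81 CPM in PBS and 7.68, 9.8, 8, 15.5 and 9.76 CPM with IL-33, with a change of 3.12 (SE 0.83, adjusted p = 0.0221). Neither gene overlapped between groups. IL-33 replicate 4 was the highest for Rad54b, and without it the adjusted p was 0.0507. The change of Rad54b ranged from 2.74 (without PBS replicate 2) to 3.91 (without PBS replicate 1) when each library was left out. In the annotation, 35.77% of the exonic length of Rad54b is shared with Fsbp on the same strand and 15.36% of that of Rad54l with Lrrc41 on the other, so some reads may belong to those genes.

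Rad51ap1 was at 0, 0, 0 and 5.73 CPM in PBS and 24.3, 35.1, 19.2, 32.8 and 34.5 CPM with IL-33. All 60 of its PBS counts came from replicate 4, the library rich in acinar RNA, and every IL-33 library was above it. The change was 4.50 (SE 1.41, adjusted p = 0.0426). This call was lost in 14 of 21 alternatives, among them each of the 8 that leave out a library other than PBS replicate 4 (adjusted p between 0.0606 and 0.0855). Without PBS replicate 4 the adjusted p was 1.59e-04, and the fitted change of 12.15 is then no measured size, since the remaining PBS libraries were at 0.

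Rad51b, Rad51c, Xrcc2 and Xrcc3, whose proteins form small complexes that assist strand exchange, were not called by edgeR, and 1 of the 4, Rad51b, had an unadjusted p below 0.05 and was called higher by DESeq2, limma-voom and limma-trend. Rad51b was at 0.0508, 0, 0.861 and 0 CPM in PBS and 2.93, 4.04, 3.02, 0.715 and 2.08 CPM with IL-33 (log2 change 3.39, SE 1.28, adjusted p = 0.0806). PBS replicate 3 alone overlapped the IL-33 range, and without it the adjusted p was 0.00585 and the fitted change 6.58. Xrcc3 was at 1.17, 0, 1.06 and 2.39 CPM in PBS and 0, 21.1, 3.26, 10.9 and 14.3 CPM with IL-33. Its IL-33 libraries spread from no count to the highest value of the gene (log2 change 3.12, adjusted p = 0.142). When the library at 0, IL-33 replicate 1, was left out, the change was 3.44 and the adjusted p 0.0449. Without IL-33 replicate 2 they were 2.64 and 0.274. Rad51c had a change of 1.76 (adjusted p = 0.204), and Xrcc2 one of -0.48 (adjusted p = 0.467). That of Rad51c ranged from 1.35 (without PBS replicate 4) to 2.79 (without PBS replicate 1, adjusted p = 0.0875) when each library was left out.

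In the Fanconi anaemia pathway a core complex that includes FANCA, FANCB and FANCG attaches ubiquitin to the pair FANCD2 and FANCI, and BRIP1 is a helicase that binds BRCA1. Fancd2 (chr6:113531682-113597017) had the largest fitted change of the 37 genes. It was at 0.66, 0, 0 and 0 CPM in PBS and 7.79, 9.32, 9.86, 18.2 and 14.3 CPM with IL-33, with 13 PBS counts in all, every one from replicate 1. The change was 5.99 (SE 1.14, adjusted p = 0.00477). Without PBS replicate 1 the fitted value was 10.77 against controls at 0, which is no measured size. Its partner Fanci was at 1.47, 0.482, 0 and 0 CPM in PBS and 0.773, 14.2, 6.74, 2.05 and 11.2 CPM with IL-33. IL-33 replicates 1 and 4 were low and the groups overlapped (log2 change 3.78, SE 1.36, adjusted p = 0.0693). Without PBS replicate 1 the change was 5.33 and the adjusted p 0.0436, and without IL-33 replicate 2 they were 3.36 and 0.147. The unadjusted edgeR p of Fanci was 0.0200. DESeq2 (adjusted p = 0.00762) and limma-trend (adjusted p = 0.0262) called Fanci higher, while limma-voom did not (adjusted p = 0.278). In the annotation, 15.95% of the exonic length of Fanci is shared with Polg on the other strand.

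The core complex genes were not called by edgeR, although Fanca had an unadjusted p of 0.0421 and was called higher by DESeq2. Fanca was at 0.305, 0.844, 0.304 and 0 CPM in PBS and 0, 6.77, 2.51, 3.86 and 3.59 CPM with IL-33, and IL-33 replicate 1, at 0, lay below 3 of the 4 controls (log2 change 3.16, adjusted p = 0.118). Without that library the adjusted p was 0.0298. The change of Fanca ranged from 2.74 (without IL-33 replicate 2) to 3.93 (without PBS replicate 2) when each library was left out. Fancg, the core gene with the most reads for its length here, was at 13.2, 15.9, 8.41 and 7.35 CPM in PBS and 21.2, 20.1, 25.9, 8.62 and 21 CPM with IL-33 (log2 change 0.79, adjusted p = 0.135). The fourth IL-33 library was as low as the controls, and in its absence the adjusted p was 0.0466. Fancb had a change of -0.75 (adjusted p = 0.657), or -0.0059 without PBS replicate 2, and that of Brip1 was 2.51 (adjusted p = 0.170), although its IL-33 libraries (8.84 to 18.5 CPM) all lay above its PBS libraries (0 to 6.68 CPM). Without PBS replicate 4 the change of Brip1 was 3.64 (adjusted p = 0.0787), and limma-voom (adjusted p = 0.0268) and limma-trend (adjusted p = 0.0344) called it higher.

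The MRN complex joins MRE11A, RAD50 and NBN at a broken end and activates ATM. Of its 3 genes 1 was called, where 25.2% of all genes tested were called in either direction. Nbn (chr4:15957925-15992589) encodes the subunit that recruits ATM, and it fell from 59.4, 72.1, 68 and 50.7 CPM in PBS to 19, 20.2, 36.9, 20.2 and 28.4 CPM with IL-33. Each IL-33 library lay below each PBS library. The log2 change was -1.33 (SE 0.23, adjusted p = 0.00287), and the call held in all 21 alternatives. Rad50, a large ATPase that tethers the ends, was at 144, 147, 146 and 141 CPM in PBS and 141, 151, 142, 204 and 163 CPM with IL-33. The controls differed little among themselves and the groups overlapped (log2 change 0.15, SE 0.12, adjusted p = 0.406). Mre11a, the nuclease, had a change of 0.11 (SE 0.24, adjusted p = 0.787).

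Because the subunits of a complex can be set against each other within a library, the ratio of partner genes was taken for 12 pairs, chosen after the values were seen, as the difference of log2(CPM + 0.5). The log2 ratio of Nbn to Rad50 was -1.21 ± 0.20 in PBS (SD, n = 4) and -2.69 ± 0.51 with IL-33 (SD, n = 5). The ratio of Nbn to Mre11a was 1.41 ± 0.18 in PBS and -0.05 ± 0.43 with IL-33. In both, all 5 IL-33 libraries lay below all 4 PBS libraries, and the two-sided exact permutation p was 0.0159, the smallest that 126 splits can give. The ratio of Mre11a to Rad50 differed by -0.02 between the groups (exact permutation p = 0.952). That of Chek1 to Atr was higher by 3.61 (exact permutation p = 0.0317), with PBS replicate 1 resting on the pseudocount because Chek1 had no count there. It ranged from 2.62 (without PBS replicate 1) to 4.32 (without PBS replicate 4) when each library was left out. The exact permutation p then lay below 0.05 in 2 of the 9 runs, those that dropped the fourth PBS or the first IL-33 library, and reached 0.0714. In such runs only groups that separate fully can give a value below 0.05, so this count does not measure how stable the difference is. Adjusted over the 12 pairs no difference passed 0.05, and the lowest adjusted exact permutation p was 0.0952, for both Nbn ratios. With only these ratios at the smallest p that 126 splits allow, their adjusted p could not be lower whatever the size of the differences. The adjustment therefore cannot decide about them.

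**Figure D3:**
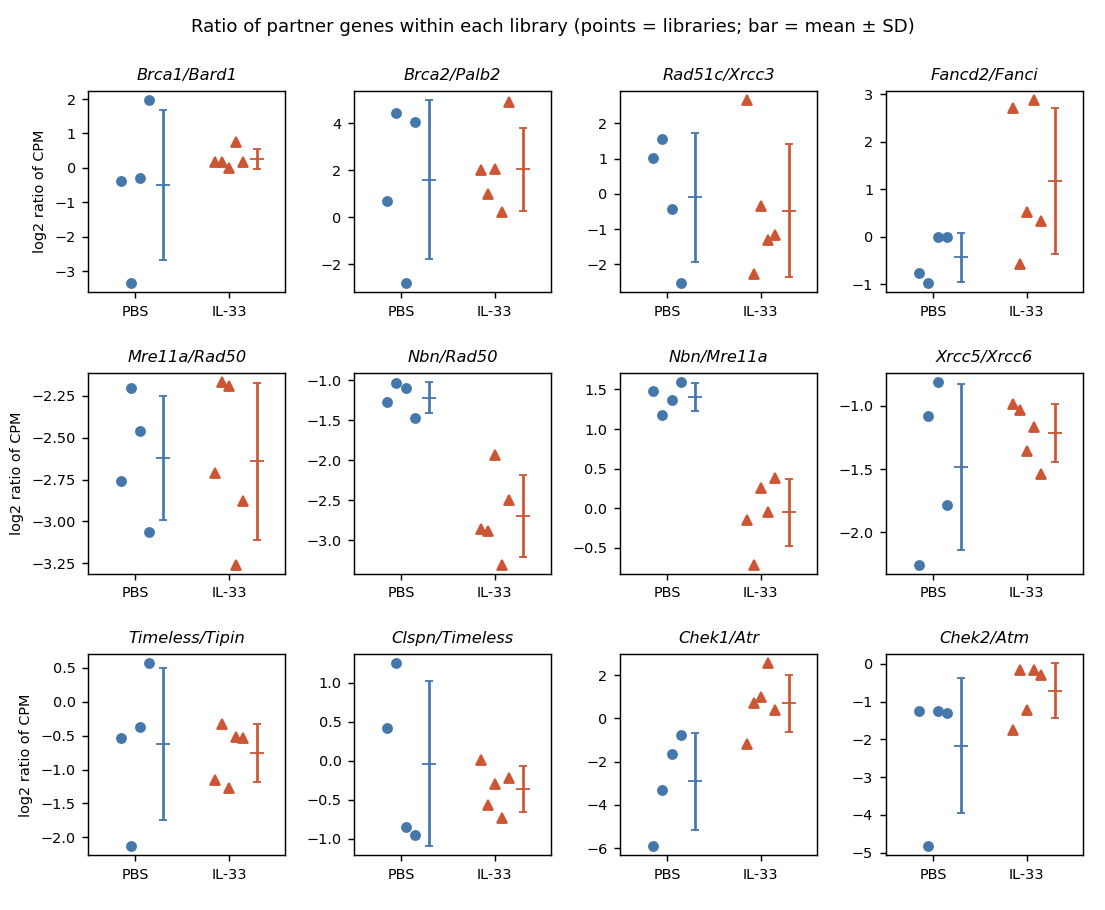
Log2 ratio of the CPM of 12 pairs of partner genes within each library, with blue circles for the 4 PBS libraries, red triangles for the 5 IL-33 libraries and bars for mean ± SD; each panel has its own vertical scale. The ratios of Nbn to Rad50 and to Mre11a separate the groups, while that of Mre11a to Rad50 overlaps; PBS ratios of genes with a control at 0, such as Fancd2 to Fanci and Brca1 to Bard1, rest partly on the pseudocount of 0.5 CPM.

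The genes of end resection, unwinding and mismatch repair were not called by edgeR, and 1 of the 3, Msh6, had an unadjusted p below 0.05; DESeq2 and limma-voom each called 1 of them higher and limma-trend called 2. MSH6 takes part in recognising mismatched bases. Msh6 was at 19.8, 10.4, 7.95 and 7.25 CPM in PBS and 23, 25.2, 16.8, 21.3 and 22.8 CPM with IL-33, and PBS replicate 1 alone overlapped the IL-33 libraries (log2 change 0.94, SE 0.31, adjusted p = 0.0531). Without that library the change was 1.35 and the adjusted p 0.00569, and without PBS replicate 4 they were 0.77 and 0.106. The helicase gene Blm was at 18.8, 16.2, 10.4 and 8.4 CPM in PBS and 22.9, 23.2, 9.25, 24.1 and 36 CPM with IL-33 (log2 change 0.78, adjusted p = 0.170). IL-33 replicate 3 lay among the controls, and without it the adjusted p was 0.0473. With trends on length and GC content taken out of each library, the change of Blm was 1.22 (adjusted p = 0.0431). The other 19 of the 21 alternatives did not call Blm. Exo1, the nuclease that extends resection, was at 2.08, 0, 2.18 and 0 CPM in PBS and 7.96, 11.5, 4.23, 2.76 and 5.77 CPM with IL-33. Its groups did not overlap, but it was near 0 in the controls (log2 change 2.56, SE 1.21, adjusted p = 0.153). The change of Exo1 ranged from 2.15 (without PBS replicate 2) to 3.15 (without PBS replicate 3) when each library was left out.

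PARP1 senses strand breaks and builds poly(ADP-ribose) chains, and XRCC5 and XRCC6 form the Ku ring that holds ends for joining. Parp1 was at 56.9, 25, 29.6 and 38.5 CPM in PBS and 62.3, 69.5, 83, 85.6 and 60.9 CPM with IL-33. The groups did not overlap, though PBS replicate 1 came close, and the change was 0.95 (SE 0.24, adjusted p = 0.0195). Xrcc6 was at 52.3, 78.4, 62 and 75.3 CPM in PBS and 38.6, 47, 60.8, 26.2 and 53.5 CPM with IL-33 (log2 change -0.57, SE 0.24, adjusted p = 0.115). The groups overlapped, and IL-33 replicate 4 was the lowest library. Xrcc5 had a change of -0.45 (adjusted p = 0.395).

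The fork protection genes all rose. Timeless and Tipin encode a pair that travels with the replication fork, and claspin, from Clspn, couples it to checkpoint signalling. Tipin (chr9:64281581-64305424) was at 21, 29.4, 25.1 and 14.4 CPM in PBS and 101, 100.3, 75.6, 88.8 and 98.5 CPM with IL-33. The lowest IL-33 library was above the highest control by a wide margin, and the log2 change was 2.04 (SE 0.21, adjusted p = 2.33e-04). Clspn (chr4:126556935-126593903) was at 19.3, 15.7, 10.5 and 10.9 CPM in PBS and 45.5, 53.8, 25.3, 37 and 58.3 CPM with IL-33, with a change of 1.64 (SE 0.30, adjusted p = 0.00368). Timeless ranged from 6.33 to 21.6 CPM in PBS and from 31.2 to 80.1 CPM with IL-33, with a change of 1.90 (SE 0.39, adjusted p = 0.00687). The calls of Tipin and Clspn held in all 21 alternatives, as did that of Nbn alone among the other called genes.

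Among the damage kinases, 1 of 4 was called, where 25.2% of all genes tested were called in either direction. ATR answers stalled forks and single-stranded DNA, and CHEK1 is its main target. Atr (chr9:95857597-95951781) was at 29.7, 23.1, 17.6 and 13.6 CPM in PBS and 11, 9.02, 6.46, 2.57 and 10.6 CPM with IL-33. It fell, with groups that did not overlap and a change of -1.40 (SE 0.41, adjusted p = 0.0328). The call was lost without PBS replicate 1 (adjusted p = 0.0951), PBS replicate 2 (adjusted p = 0.0777), IL-33 replicate 2 (adjusted p = 0.0612) or IL-33 replicate 3 (adjusted p = 0.0662). With trends on length and GC content taken out of each library the change was -0.33 (adjusted p = 0.575). Chek1 was at 0, 1.87, 5.22 and 7.63 CPM in PBS and 4.64, 15.1, 13.2, 17.3 and 14.2 CPM with IL-33. IL-33 replicate 1 lay among the controls and PBS replicate 1 had no count (log2 change 1.82, SE 0.98, adjusted p = 0.204). The change of Chek1 ranged from 1.40 (without PBS replicate 1) to 2.44 (without PBS replicate 4) when each library was left out.

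ATM is the kinase for double-strand breaks, and CHEK2 is its target. Atm was at 22.2, 27.4, 11.5 and 20.1 CPM in PBS and 27.3, 16, 12.6, 16.6 and 13.8 CPM with IL-33, with overlapping groups (log2 change -0.23, SE 0.31, adjusted p = 0.616). Chek2 had a change of 0.97 (adjusted p = 0.323).

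Trp53 and the damage mediators were not called in either direction by edgeR, DESeq2, limma-voom or limma-trend, and 2 of the 3 had an unadjusted p below 0.05 in edgeR. Trp53 encodes p53, the transcription factor that halts or kills damaged cells. It was at 81.5, 127, 95.1 and 144 CPM in PBS and 98.7, 144, 99.2, 92.7 and 123 CPM with IL-33, with overlapping groups (log2 change -0.0044, SE 0.20, adjusted p = 0.989). The mediators MDC1 and 53BP1 bind chromatin around a break. Mdc1 was at 7.46, 12, 10.5 and 15.2 CPM in PBS and 3.15, 5.76, 1.91, 6.76 and 8.96 CPM with IL-33 (log2 change -1.08, SE 0.45, adjusted p = 0.107). Trp53bp1 was at 39.4, 48.8, 37.4 and 8.87 CPM in PBS and 18.0, 17.9, 20.04, 9.96 and 19.0 CPM with IL-33 (log2 change -0.99, SE 0.42, adjusted p = 0.115). PBS replicate 4 was the lowest of all libraries for Trp53bp1, and without it the change was -1.31 with an adjusted p of 0.00562. Without PBS replicate 2 they were -0.75 and 0.278. With trends on length and GC content taken out of each library they were -0.44 and 0.485. In the annotation, 15.04% of the exonic length of Trp53bp1 is shared with Tubgcp4 on the other strand.

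RAD21 is the subunit that closes the cohesin ring around sister chromatids. Rad21 was at 91.3, 97.3, 71.5 and 84.8 CPM in PBS and 162, 112, 104, 145 and 164 CPM with IL-33. It rose without overlap and by less than the other genes that rose, with a change of 0.67 (SE 0.17, adjusted p = 0.0184).

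**Figure D4:**
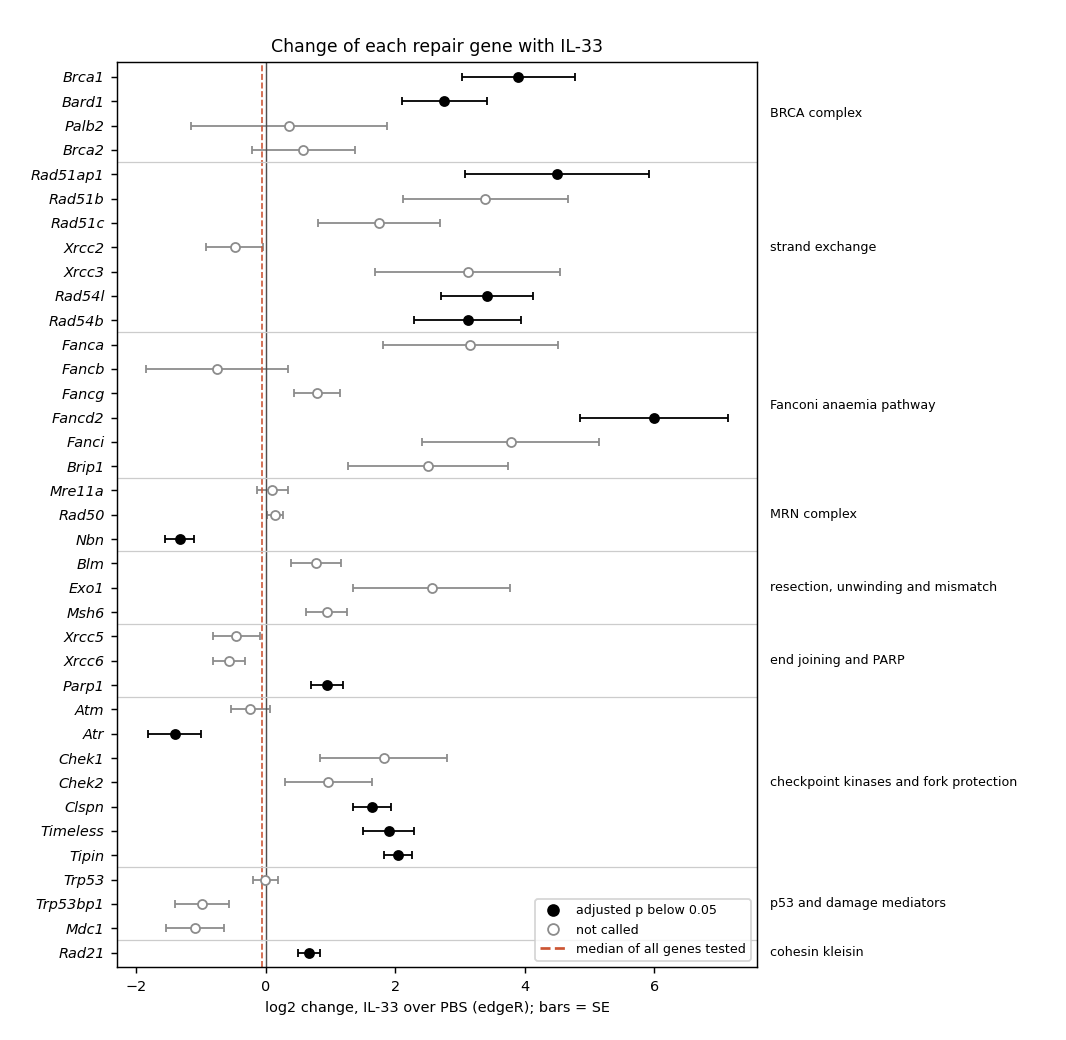
Log2 change of each repair gene with IL-33 over PBS, from edgeR, with bars for the SE, filled points for an adjusted p below 0.05 and a dashed line at the median of all genes tested (-0.05). Fancd2 lies farthest right at 5.99 with a wide bar, while Tipin at 2.04 and Nbn at -1.33 have narrow ones.

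Levels were set between genes as CPM per kilobase of the longest coding transcript. In PBS, Trp53 was highest at 59.9 ± 15.4 CPM per kb, followed by Rad50, Nbn, Rad21 and Xrcc6 at 28.0, 24.7, 21.8 and 20.3 CPM per kb. The ranges of mean ± SD overlapped among Nbn, Rad21 and Xrcc6 (SD 3.77, 2.80 and 3.68), and that of Rad50 (SD 0.54) overlapped that of Nbn. The low end was made up of Fancd2 (0.030 CPM per kb), Fanca (0.081), Rad51b (0.104), Fanci (0.105), Exo1 (0.137) and Brca1 (0.156). With IL-33 the order of the upper genes was Trp53 (59.7 CPM per kb), Tipin (50.4), Rad21 (34.8), Rad50 (31.1) and Parp1 (18.7), and Nbn stood at 9.85. Trp53 and Tipin (SD 11.6 and 5.89) did not differ beyond their spread, nor did Rad21 and Rad50 (SD 7.18 and 5.05). Rad51ap1, Timeless and Rad54l lay at 13.1, 12.9 and 12.2 CPM per kb with SDs of 3.18, 4.33 and 3.37, which do not separate them. Mdc1 (0.724) and Fanca (0.746) were then the lowest. The median coefficient of variation of these genes was 55.0% in PBS and 33.5% with IL-33, against 34.1% and 27.2% over all genes tested. It was larger in PBS than with IL-33 for 27 of the 37 genes, and for 62.9% of all genes tested. This measure depends on level, and 13 of the 37 genes had a PBS library at 0. Genes of like level were not compared.

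**Figure D5:**
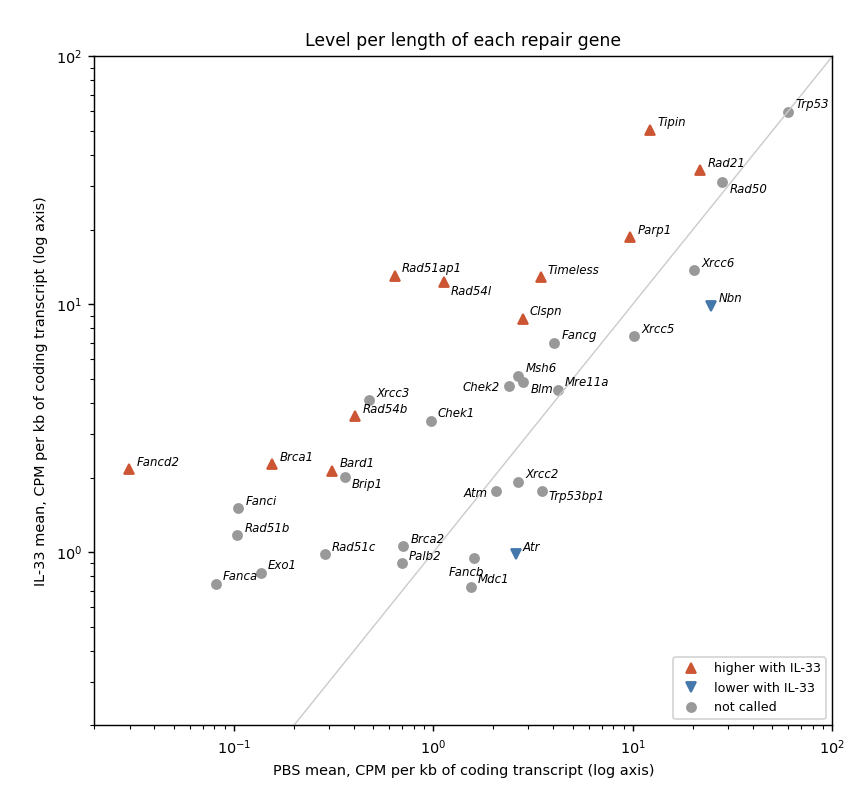
Mean level of each repair gene in PBS (horizontal) and with IL-33 (vertical), in CPM per kilobase of the longest coding transcript, both axes logarithmic, with a line of equal levels. Red triangles mark genes called higher, blue triangles those called lower; Trp53 lies on the line at 59.9 and 59.7, and Fancd2 far above it at 0.030 and 2.16.

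Other genes of the repair pathways, 164 of them tested in 10 lists, gave 36 called higher and 15 called lower, with a median log2 change of 0.13, beside the 13.7% and 11.6% called over all genes tested. Among 29 other homologous recombination genes, 12 rose and 1 fell. Rmi2, of the complex that dissolves recombination junctions with BLM, went from 10.04 ± 3.01 to 34.995 ± 4.10 CPM (log2 change 1.80, adjusted p = 8.44e-04). Eme1, a subunit of a junction-cutting nuclease, went from 0.0887 CPM, with 7 counts in all PBS libraries together, to 11.9 ± 4.26 CPM (adjusted p = 0.00158), while its relative Eme2 fell by 2.12 (adjusted p = 0.0135). Of 16 other Fanconi anaemia genes tested 4 rose, led by the ubiquitin ligase gene Rfwd3 (log2 change 1.73, adjusted p = 2.32e-04) and Ube2t (2.54, adjusted p = 3.49e-04), which encodes the enzyme that passes ubiquitin to FANCD2.

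Base excision repair held 6 rises and 1 fall among 17 genes. For this list and those that follow, the shares over all genes tested were 13.7% called higher and 11.6% called lower. The ligase gene Lig1 rose from 56.3 ± 13.2 to 278 ± 76.7 CPM and the flap nuclease gene Fen1 by 2.12 on the log2 scale, and both enzymes also finish lagging-strand fragments in replication. Nthl1, a glycosylase gene, fell by 2.33. In nucleotide excision repair 1 of 17 rose, Gtf2h5 (log2 change 0.69), and 3 fell, among them Ercc6 (-2.18) and Ercc5 (-1.51). End joining held 1 rise, of the polymerase gene Poll (1.04), and 1 fall among 13 genes. The fall was Prkdc, the kinase that Ku recruits, from 37.9 ± 8.97 to 15.6 ± 3.86 CPM (log2 change -1.28, adjusted p = 0.00502). Mismatch repair had 6 genes and edgeR called none, with none at an unadjusted p below 0.05 and none by DESeq2, limma-voom or limma-trend. Translesion synthesis had 5 and edgeR called none, with 1 at an unadjusted p below 0.05, 1 higher and 1 lower by DESeq2, and none by limma-voom or limma-trend.

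Of 24 checkpoint and damage signalling genes 4 rose. H2afx, the histone variant phosphorylated around breaks, went from 28.5 ± 19.8 to 245 ± 52.2 CPM (log2 change 3.11, adjusted p = 0.00148), and the phosphatase gene Cdc25b changed by 3.27 (adjusted p = 0.00158). Of 23 known p53 targets 4 were called higher and 4 lower, beside 13.7% and 11.6% of all genes tested. Btg2, an antiproliferative gene, fell from 4190 ± 225 to 777 ± 106 CPM (log2 change -2.43, adjusted p = 6.80e-06) and Cdkn1a, the gene of the CDK inhibitor p21, from 797 ± 29.5 to 440.4 ± 63.3 CPM (log2 change -0.86, adjusted p = 7.37e-04). Plk3 rose by 1.42 and Bax by 0.51. Of the 14 cohesin genes 4 were called higher and 5 lower. Cdca5, which encodes the cohesion factor sororin, rose (log2 change 4.66, adjusted p = 0.0136), and Espl1, of the protease that opens cohesin at anaphase, had 3 counts in PBS and 1639 with IL-33, a ratio of 364 after scaling (95% exact binomial interval 124 to 1765, counting error only). The cohesin loader gene Nipbl fell by 0.87 and the core subunit gene Stag1 by 0.95.

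Proliferation genes were mostly higher with IL-33. Of 25 listed, 23 were called higher, against 13.7% of all genes tested. Of the 37 repair genes, 11 were called higher, 2 lower and 24 not called. The summed share of counts of the 25 proliferation genes was 0.0299% to 0.0567% in PBS and 0.279% to 0.425% with IL-33. Mki67, a marker of cycling cells, went from 18.0 ± 12.8 to 209 ± 20.3 CPM (log2 change 3.55, adjusted p = 3.44e-04), Top2a by 3.67 and Pcna by 1.46. Other lists moved as well: the summed share of 6 erythroid genes in the table, led by the alpha-globin genes, was 0.0142% to 0.0343% in PBS and 0.0424% to 0.365% with IL-33, with Alas2 at 0 in all PBS libraries. That of 9 endocrine genes was 0.00403% to 0.0180% and 0.0408% to 0.0556%, with Gcg, Ppy and Pcsk2 at 0 in all PBS libraries, and that of 2 mast cell and basophil genes in the table was 0.00174% to 0.00486% and 0.0103% to 0.0366%. Shares of the acinar, ductal, endothelial, fibroblast, T cell, B cell and myeloid lists overlapped between the groups. The part of cycling cells, or of these other cells, in the changes of the repair genes was not tested. When the 3 IL-33 libraries with beta-globin reads were left out, Clspn, Timeless, Tipin and Rad21 were still called higher and Nbn lower, and with 2 IL-33 libraries left the other 7 rises and the fall of Atr kept their direction at adjusted p between 0.0627 and 0.211.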

How the data were processed

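Messenger RNA was sequenced as paired reads of 150 nt from 5 to 15 ng of RNA with a low-input kit, per the labels' protocols. The authors deposited counts, whole numbers by Ensembl identifier, and a normalized signal in which each library's counts are divided by its own factor. The submitters' processing notes list STAR 2.7.7a, Salmon 1.6.0, Trimmomatic 0.39, FastQC 0.11.9, DESeq2 and Picard, and the build GRCm38.p6. What each did, and whether counting used strand, is not given in the sources used here, so reads of overlapping genes could be shared. Symbols matched 20607 of 20732 genes (99.4%), with coordinates from GENCODE M21 on GRCm38.

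The main test was the two-sided quasi-likelihood F-test of edgeR 4.0.16 (R 4.3.3) on the counts of all 9 libraries, with TMM scaling, a robust fit, a filterByExpr minimum of 10 counts, and Benjamini-Hochberg adjustment over 14405 genes at 0.05. The biological coefficient of variation was 0.560. Ratios of partner genes used a pseudocount of 0.5 CPM and a two-sided exact permutation test (SciPy 1.17.1). The fit was checked on simulated data, and no pair of replicates was a duplicate by a chi-square test of counts. Intervals and floors cover counting error only.

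The repair genes, lists and tests were chosen with earlier results of these data known, and the partner pairs after the values were seen. Values per library were given for the 2 genes of each role with the smallest p (1 where the role has 1), those called lower, Trp53, Atm, Atr, Chek1, Brca2, and those whose call ended or began when 1 library was left out. Of each related list, the 2 called genes with the smallest p in each direction were named, and of proliferation Mki67, Top2a and Pcna. Alternatives were DESeq2 size factors, library size alone, no filter, a filter of 5 CPM in at least 4 libraries, DESeq2 1.42.0, limma 3.58.1 (voom with sample weights, and trend on log2(signal + 1) of the deposited table), the replicate number as a block, a threshold of 0.01, removal of acinar and endocrine genes, removal of a length and GC trend, each library left out, and IL-33 replicates 1 to 3, which held beta-globin reads, left out. Ratio pseudocounts of 0.1 and 1 CPM, and ratios without each library, were added after seeing the data.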

Additional observations from a re-analysis of the deposited data

Results flagged for a closer look

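By Dixon's test, 1 library lay far from the others of its group in 6 of the 74 combinations of repair gene and group. Chance marks about 1 in 20 where values follow a normal distribution, which values near 0 need not do. A group with 1 counted library and the rest at 0, as for Rad51ap1 and Fancd2, is marked whatever the value. Rad51ap1 was at 5.725 CPM in PBS replicate 4 and at 0 in the other controls. Rad51b was at 0.8614 CPM in PBS replicate 3, above the other controls. Fancd2 was at 0.6602 CPM in PBS replicate 1 and at 0 in the other controls. Rad54b was at 15.48 CPM in IL-33 replicate 4, the highest of its group. Atm was at 27.35 CPM in IL-33 replicate 1, the highest of its group. Trp53bp1 was at 9.957 CPM in IL-33 replicate 4, the lowest of its group.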

How the results depend on the processing

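The count of repair genes called higher was 11. It ranged from 10 to 12 when each library was left out and from 10 to 16 over the other scalings, filters and tools, and was 6 with the replicate block, 5 at a threshold of 0.01 and 4 when the 3 beta-globin libraries were left out. The 2 called lower ranged from 1 to 3 when each library was left out and were 1 with library size alone, with the length and GC trend removed, at 0.01 and without those 3 libraries. For the 36 and 15 related repair genes, leaving out each library gave 23 (without IL-33 replicate 2) to 33 higher and 12 to 16 lower; library size alone gave 5 lower, the replicate block 17 and 3, the threshold of 0.01 16 and 7, and leaving out the 3 libraries 14 and 4. For all genes, 1967 and 1666, leaving out each library gave 1445 to 1969 and 1193 to 1726; library size alone gave 644 lower, DESeq2 2588 lower, the replicate block 791 and 666, the threshold of 0.01 1019 and 767, and leaving out the 3 libraries 732 and 664. That last setting leaves fewer samples and 0.01 is a stricter limit; the cause of the other shifts was not tested. The replicate block took the calls of Parp1, Rad21, Rad51ap1, Rad54b and Timeless. Same-numbered libraries share only a number here: their deviations from the group means correlated at -0.0301, -0.0564, -0.0299 and 0.067. In 13 of the 37 genes a PBS library was at 0, and a share of depth in these zeros was not tested.

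Among the alternatives run, directions reversed only for genes and ratios that were not called. Fancb was 0.57 with limma-trend and 0.36 with the replicate block, Mre11a -0.15 without the 3 libraries, Atm 0.27 with the trend removed, Trp53 0.19 with library size alone and 0.086 with limma-voom, and the ratio of Rad51c to Xrcc3 0.036 with a pseudocount of 0.1 CPM. When each library was left out, the change of Palb2 ranged from -0.12 to 1.28, of Mre11a from -0.046 to 0.28 and of Trp53 from -0.13 to 0.13. The ratio difference ranged from -0.18 to 1.59 for Brca1 to Bard1, from -1.03 to 1.39 for Brca2 to Palb2, from -1.20 to 0.16 for Rad51c to Xrcc3, from -0.17 to 0.13 for Mre11a to Rad50, from -0.64 to 0.26 for Timeless to Tipin and from -0.64 to 0.099 for Clspn to Timeless.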
